A study of Mus musculus with 11 samples.

Results

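The genes described here are 35 markers of liver endothelial cells, read in RNA from mouse hepatocyte isolates. They were taken as a named list, and each gene was given the row of the deposited array table that is annotated to it alone. Of the 35 genes, 33 had such a row, against 30142 genes with a named row in the whole table. The rows of Egfl7 and Nrp1 are shared with microRNA symbols, so these genes have no value here. Of the 33, 30 reached the signal level needed for testing, and Wnt2, Sox18 and Vwf did not.

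The study crossed a deletion of Nemo with a deletion of Cxcr6 in male mice aged 12 weeks and measured 11 arrays. Nemo (encoded by Ikbkg) is needed by the kinase complex that switches on NF-kB, and Cxcr6 is the chemokine receptor that binds Cxcl16. The wildtype group (2 arrays) came from the Nemo line without Cre. The Nemo KO group (3 arrays) came from the same line with Cre and carried NemoLPC-KO, the deletion in liver parenchymal cells, so that endothelial cells are not its target. The Cxcr6 KO group (3 arrays) came from the Nemo_CXCR6 line without Cre. The double KO group (3 arrays) came from that line with Cre and is labelled as carrying both deletions. The deletion of Cxcr6 was not limited to the liver by its label. The strain and the Cre driver are not given in the sources used here. All Cxcr6-deleted arrays came from 1 mouse line and all others from another, so the Cxcr6 deletion and the mouse line cannot be told apart. The labels call the replicates biological without saying that each is a separate mouse, so p-values measure the spread between these arrays.

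Liver sinusoids are lined by a perforated endothelium that has no continuous basement membrane and clears macromolecules from blood through scavenger receptors. The same cells send Wnt and Bmp ligands to neighbouring hepatocytes, where they set zonation and hepcidin production. General endothelial genes such as Pecam1 and Cdh5 mark every vessel, and genes such as Stab2, Clec4g and Lyve1 mark the sinusoid. Some of the 35 genes are also known in other liver cells, among them Fcgr2b, Stab1 and Dnase1l3 in macrophages, Aqp1 in bile duct cells and Gata4 in stellate cells. An isolate of hepatocytes holds some endothelial RNA, and in such bulk RNA the number of endothelial cells and the RNA per cell cannot be told apart.

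Promoters were in the RefSeq table (GRCm38.p6) for 20 of the 35 genes. The 250 bases before the annotated start are shown for 4 genes of different roles that were higher in double KO than in Cxcr6 KO, because ETS factors such as Erg are known regulators of endothelial promoters. Capitals mark each match to the ETS core AGGAAG, read on either strand, and each sequence is given 5′ to 3′ on the strand of the gene. Eng, a co-receptor for TGF-beta and Bmp ligands, lies at chr2:32646345-32646594 (plus strand). Flt4, the receptor for Vegfc, lies at chr11:49609429-49609678 (plus strand). Ehd3, an ATPase of endocytic recycling, lies at chr17:73804591-73804840 (plus strand). Aqp1, a water channel, lies at chr6:55336049-55336298 (plus strand).
Eng: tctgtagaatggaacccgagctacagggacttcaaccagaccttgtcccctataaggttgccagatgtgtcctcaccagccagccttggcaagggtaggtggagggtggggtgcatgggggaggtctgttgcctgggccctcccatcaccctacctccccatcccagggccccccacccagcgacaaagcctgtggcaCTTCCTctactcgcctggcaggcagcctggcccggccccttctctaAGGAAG
Flt4: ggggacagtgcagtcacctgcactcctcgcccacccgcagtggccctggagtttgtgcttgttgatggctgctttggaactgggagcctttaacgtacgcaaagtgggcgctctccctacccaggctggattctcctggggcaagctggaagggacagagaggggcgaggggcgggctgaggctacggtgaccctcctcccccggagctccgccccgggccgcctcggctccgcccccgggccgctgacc
Ehd3: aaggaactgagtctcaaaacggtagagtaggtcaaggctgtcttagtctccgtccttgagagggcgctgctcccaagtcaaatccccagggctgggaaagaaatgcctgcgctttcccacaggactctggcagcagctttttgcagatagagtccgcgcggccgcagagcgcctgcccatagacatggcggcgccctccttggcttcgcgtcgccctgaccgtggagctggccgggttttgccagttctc
Aqp1: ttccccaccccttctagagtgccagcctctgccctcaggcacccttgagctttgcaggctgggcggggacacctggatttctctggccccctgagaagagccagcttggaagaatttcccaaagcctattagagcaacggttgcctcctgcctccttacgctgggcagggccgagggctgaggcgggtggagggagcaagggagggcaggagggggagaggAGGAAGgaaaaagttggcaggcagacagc
The Eng window held 2 matches, with the first base at -52 and -6 from the start, and the Aqp1 window held 1, at -29. The windows of Flt4 and Ehd3 held none. The ETS core was present in 11 of the 20 promoters of listed genes (55.0%) and in 29.2% of 27025 promoters of the same length. Among the 12 of these genes that were higher in double KO than in Cxcr6 KO, 6 promoters held it. The matching windows of Clec4g, Emcn, Flt1, Nrp1, Robo4, Stab1 and Stab2 overlap the annotated gene itself instead of ending at its start. Egfl7 and Nrp1, also among the 11, have no expression value here. The GATA core AGATAA was in 0 of the 20 promoters, against 10.3% of all, and the SOX core ACAATG was in 1 of 20, against 11.0%. None of the 3 cores contains another, and a match is a description of letters, not of binding.

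Both deleted genes were read first. Ikbkg read 9.02 and 9.47 (log2 signal) in wildtype, 9.33, 9.18 and 9.45 in Nemo KO, 9.18, 9.12 and 9.16 in Cxcr6 KO, and 8.76, 8.90 and 9.49 in double KO. Its row therefore did not separate arrays labelled as Nemo deleted from the others. The row summarises probes over the gene and the labels do not name the deleted exons. Cxcr6 read between 4.94 and 5.56 on every array, near the array medians of 5.185 to 5.377, so neither row checks the labels. The 10 hepatocyte markers had list means between 17.76 and 18.05 on every array. Differences are compressed both at that level and near the lower end of the scale. Replicates of a group correlated at 0.9898 to 0.9947 over all array rows, with or without a gene symbol, except the wildtype pair at 0.9843. The wildtype pair also stood apart in cell cycle genes: Mki67, a proliferation marker, read 5.35 on wildtype replicate 1 and 11.18 on replicate 2. Several counts and medians over the listed genes that use wildtype are therefore also given without each of these arrays. The fit then has a single wildtype array, which is assumed to vary like the other groups. Counts of genes above 0 and orders of group means are given with both wildtype arrays only. So are counts of unadjusted p in Nemo KO or Cxcr6 KO against wildtype.

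The endothelial genes were highest in double KO. Their mean log2 signal over the 33 genes was 6.45 and 6.33 on the wildtype arrays, 6.62, 6.66 and 6.92 on the Nemo KO arrays, 5.99, 6.45 and 6.31 on the Cxcr6 KO arrays, and 7.12, 7.75 and 7.47 on the double KO arrays. The double KO arrays lay above all 8 others, and the Nemo KO arrays lay above every wildtype and Cxcr6 KO array. The mean of double KO was the highest of the 4 groups for 30 of the 33 genes. The lowest group was Cxcr6 KO for 20 genes and wildtype for 12. The order Cxcr6 KO, wildtype, Nemo KO, double KO from low to high held for 20 genes. Genes moved together within groups as well: double KO replicate 2 was the highest double KO array for 26 of the 33 genes, Nemo KO replicate 3 was the highest of its group for 26, and Cxcr6 KO replicate 1 was the lowest of its group for 25.

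**Figure D1:**
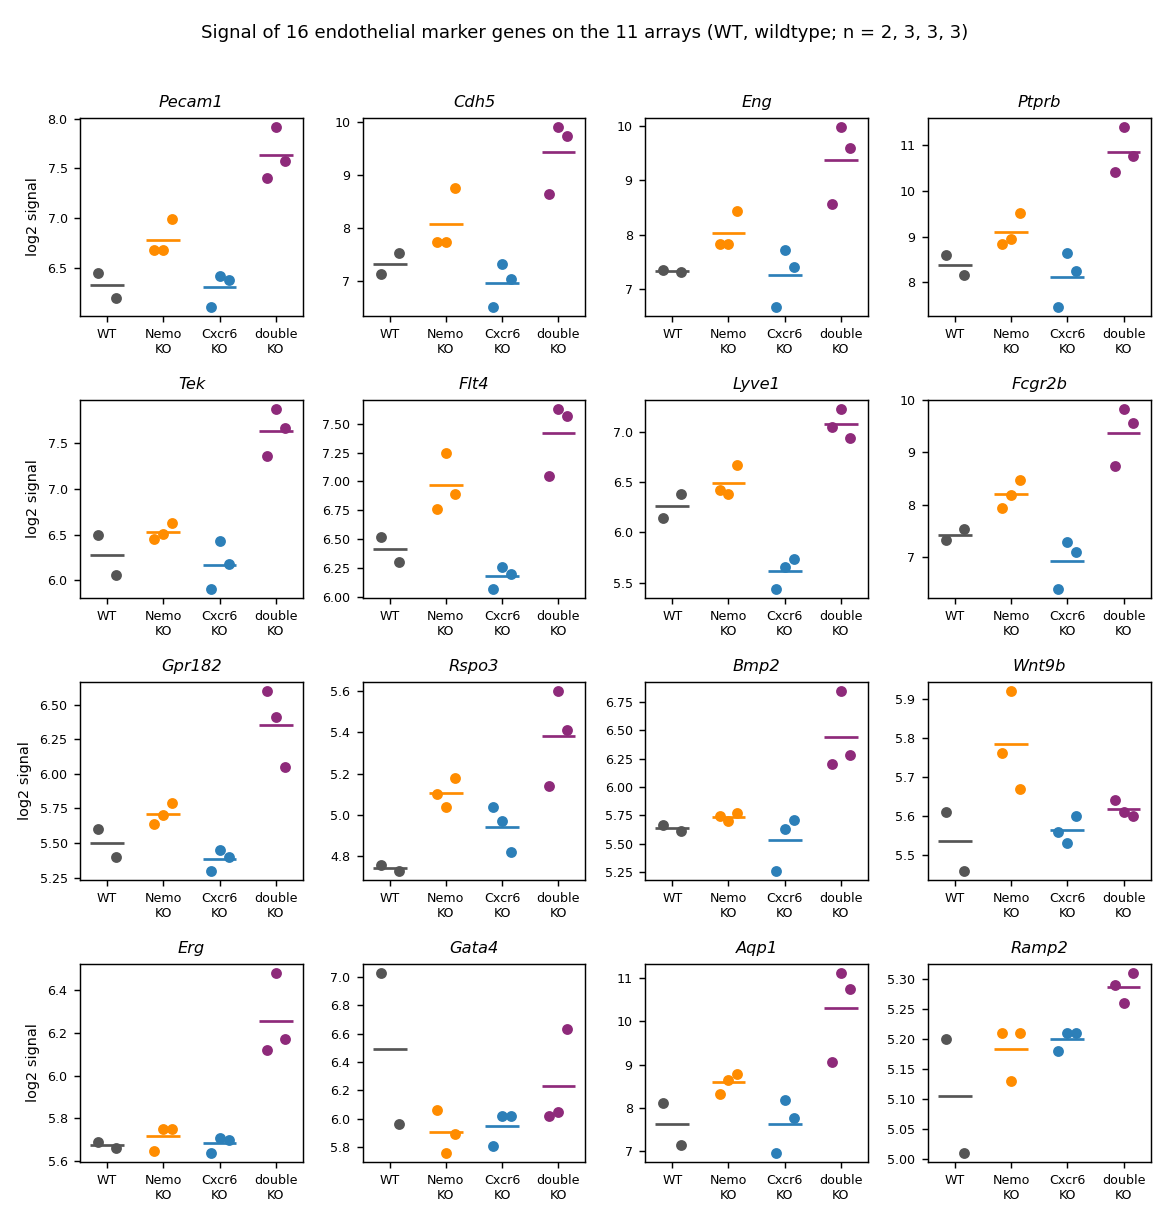
Log2 signal (vertical axis, its range set per gene) of 16 endothelial genes on the arrays of wildtype (WT, 2 arrays), Nemo KO, Cxcr6 KO and double KO (3 arrays each); points are arrays and lines are group means. All 3 double KO arrays lie above the other 8 for genes such as Ptprb (10.42 to 11.41), Tek and Gpr182, whereas Gata4 is highest on wildtype replicate 1 (7.03) and Ramp2 stays between 5.01 and 5.31.

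Loss of Nemo in mice that also lacked Cxcr6 gave the broadest difference. In double KO against Cxcr6 KO, 21 of the 30 tested endothelial genes rose and 0 fell (limma, Benjamini-Hochberg adjusted p below 5%), whereas 3.44% of all 18337 tested genes rose and 3.96% fell. Each of the 33 genes had a difference above 0. Their median difference was 0.91 on the log2 scale, against -0.06 over all tested genes. For 27 of the 30 tested genes every double KO array lay above every Cxcr6 KO array, and for 0 every array lay below, which held for 13.3% and 24.3% of all tested genes. Rspo3 and Ramp2, which are among the 27, reached the level for testing only through double KO. At an unadjusted p below 0.05, 25 of the 30 were higher, Rspo3 among them, against 29.1% of all tested genes in either direction. Limma with a trended, robust variance called 22, also with Rspo3, where 3.39% of all tested genes rose and 3.58% fell. The count was 7 without Cxcr6 KO replicate 3, where 0.453% of all tested genes rose and 0.18% fell, and 10 without double KO replicate 3, where 0.807% rose and 0.3% fell. It was 16 without double KO replicate 2, Cxcr6 KO replicate 1 or Cxcr6 KO replicate 2. Of all tested genes 1.86%, 1.21% and 0.834% rose in these settings, and 1.05%, 1.66% and 0.267% fell. Fcgr2b, Gpr182, Lyve1, Oit3, Pecam1, Ptprb and Tek passed under all 20 alternative settings tried.

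Among the genes of junctions and the vessel surface, 4 of 8 rose in double KO against Cxcr6 KO, against 3.44% of all tested genes. The median difference over the 8 was 0.73. Pecam1, an adhesion molecule of endothelial junctions, read 6.45 and 6.20 in wildtype, 6.68, 6.68 and 6.99 in Nemo KO, 6.11, 6.42 and 6.38 in Cxcr6 KO, and 7.40, 7.92 and 7.58 in double KO. The 3 double KO arrays were the highest, and each Nemo KO array was above both controls without Cre. Pecam1 rose by 1.33 ± 0.16 (log2, SE, adjusted p = 0.00776), which is 2.51-fold. Cdh5, the cadherin that holds endothelial cells together, read 7.13 and 7.53 in wildtype, 7.75, 7.74 and 8.76 in Nemo KO, 6.52, 7.32 and 7.05 in Cxcr6 KO, and 8.65, 9.92 and 9.74 in double KO. Nemo KO replicate 3 was above double KO replicate 1, and the other double KO arrays stood alone at the top. Cdh5 rose by 2.47 ± 0.39 (adjusted p = 0.0143), or 5.55-fold. Eng read 7.34 and 7.31 in wildtype, 7.83, 7.83 and 8.43 in Nemo KO, 6.67, 7.71 and 7.41 in Cxcr6 KO, and 8.57, 9.99 and 9.59 in double KO. Every double KO array was above every other array, and Eng rose by 2.12 ± 0.37 (adjusted p = 0.0181), or 4.36-fold. Mmrn2, a glycoprotein of the matrix around endothelial cells, rose by 0.84 ± 0.18 (adjusted p = 0.0303), and that call was lost without Cxcr6 KO replicate 1, 2 or 3, double KO replicate 2 or 3, or Nemo KO replicate 1. Without double KO replicate 3, or without Cxcr6 KO replicate 3, Cdh5 and Eng missed the threshold, with adjusted p between 0.0534 and 0.0684. The 4 genes that did not pass were Emcn at 0.62, Robo4 at 0.37, the tight junction gene Cldn5 at 0.26 and Esam at 0.12.

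Of the vascular growth factor receptors and their partner, 5 of 6 rose in double KO against Cxcr6 KO, against 3.44% of all tested genes. The median difference was 1.35. Ptprb, the endothelial phosphatase that acts on Tek, read 8.60 and 8.17 in wildtype, 8.85, 8.95 and 9.51 in Nemo KO, 7.47, 8.64 and 8.26 in Cxcr6 KO, and 10.42, 11.41 and 10.77 in double KO. Its double KO arrays were apart from all others, and it rose by 2.74 ± 0.34 (adjusted p = 0.00841), or 6.70-fold. Tek, the angiopoietin receptor, read 6.50 and 6.06 in wildtype, 6.45, 6.51 and 6.63 in Nemo KO, 5.91, 6.43 and 6.18 in Cxcr6 KO, and 7.35, 7.87 and 7.66 in double KO. The 8 other arrays lay between 5.91 and 6.63, and the double KO arrays stood above them. Tek rose by 1.45 ± 0.18 (adjusted p = 0.00829), or 2.74-fold. Flt4 read 6.52 and 6.30 in wildtype, 6.76, 7.25 and 6.89 in Nemo KO, 6.07, 6.26 and 6.20 in Cxcr6 KO, and 7.05, 7.63 and 7.57 in double KO. For Flt4 the Nemo KO and double KO arrays overlapped and lay above both groups without Cre. It rose by 1.24 ± 0.18 (adjusted p = 0.0113), or 2.36-fold, and stood at adjusted p = 0.0501 without Cxcr6 KO replicate 3. Kdr, the main receptor for Vegfa, rose by 2.39 ± 0.37 (adjusted p = 0.0134) and Flt1, a decoy receptor for Vegfa, by 0.63 ± 0.10 (adjusted p = 0.0147). Without Cxcr6 KO replicate 3 they missed the threshold, and Flt1 also did so without double KO replicate 3. Tie1, the partner of Tek, differed by 0.36 ± 0.14 (adjusted p = 0.121).

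All 9 genes of the sinusoid rose in double KO against Cxcr6 KO, against 3.44% of all tested genes. The median difference was 1.92. Lyve1, a hyaluronan receptor of sinusoidal and lymphatic endothelium, read 6.14 and 6.38 in wildtype, 6.42, 6.38 and 6.67 in Nemo KO, 5.44, 5.66 and 5.74 in Cxcr6 KO, and 7.05, 7.23 and 6.94 in double KO. The Cxcr6 KO arrays were below all others and the double KO arrays above all others. Lyve1 rose by 1.46 ± 0.12 (adjusted p = 0.00377), or 2.76-fold. Fcgr2b, the inhibitory Fc receptor through which sinusoids clear immune complexes, read 7.32 and 7.53 in wildtype, 7.93, 8.18 and 8.48 in Nemo KO, 6.40, 7.29 and 7.10 in Cxcr6 KO, and 8.73, 9.83 and 9.56 in double KO. The 4 groups did not overlap, and Fcgr2b rose by 2.44 ± 0.31 (adjusted p = 0.00856), or 5.43-fold. Gpr182, an atypical receptor for chemokines, read 5.6 and 5.40 in wildtype, 5.64, 5.70 and 5.79 in Nemo KO, 5.30, 5.45 and 5.40 in Cxcr6 KO, and 6.60, 6.41 and 6.05 in double KO. It was close to the array medians outside double KO, and it rose by 0.97 ± 0.13 (adjusted p = 0.0101). The lectin Clec4g rose by 2.82 ± 0.46 (adjusted p = 0.0151), or 7.07-fold, the largest difference of the 33 genes. Ehd3 rose by 2.66 ± 0.48 (adjusted p = 0.0196) and the secreted nuclease Dnase1l3 by 2.33 ± 0.36 (adjusted p = 0.0137). Oit3, a secreted sinusoidal protein, rose by 1.92 ± 0.29 (adjusted p = 0.0126). The scavenger receptors Stab2 and Stab1 rose by 1.76 ± 0.31 (adjusted p = 0.0178) and 0.86 ± 0.17 (adjusted p = 0.0228). Clec4g, Dnase1l3, Ehd3, Stab1 and Stab2 missed the threshold without Cxcr6 KO replicate 3, with adjusted p between 0.0594 and 0.0868. Of these 5, Clec4g, Dnase1l3, Stab1 and Stab2 also missed it without double KO replicate 3, and Ehd3, Stab1 and Stab2 without double KO replicate 2. Without Cxcr6 KO replicate 1 Stab1 and Stab2 missed it, and without Cxcr6 KO replicate 2 Stab1 did.

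The angiocrine ligands were near the lower end of the scale. Bmp2, the endothelial signal for hepcidin, read 5.66 and 5.61 in wildtype, 5.74, 5.70 and 5.77 in Nemo KO, 5.26, 5.63 and 5.71 in Cxcr6 KO, and 6.20, 6.85 and 6.28 in double KO. All double KO arrays were above the other 8, and Bmp2 rose by 0.91 ± 0.17 (adjusted p = 0.0226) against Cxcr6 KO. That call was lost without Cxcr6 KO replicate 1, 2 or 3 and without double KO replicate 3. Hamp, the hepcidin gene, read between 17.71 and 19.12 on all arrays, at the upper end of the scale where differences are compressed, and differed by 0.23 ± 0.29 (adjusted p = 0.634). Rspo3, which strengthens Wnt signals around the central vein, read 4.76 and 4.73 in wildtype, 5.10, 5.04 and 5.18 in Nemo KO, 5.04, 4.97 and 4.82 in Cxcr6 KO, and 5.14, 5.6 and 5.41 in double KO. The wildtype arrays were the lowest, and the difference of 0.44 ± 0.12 against Cxcr6 KO missed the threshold (adjusted p = 0.0528). Rspo3 reached the level for testing only through double KO, where it was highest. Wnt9b, a central vein ligand, read 5.61 and 5.46 in wildtype, 5.76, 5.92 and 5.67 in Nemo KO, 5.56, 5.53 and 5.6 in Cxcr6 KO, and 5.64, 5.61 and 5.6 in double KO. Unlike the other tested genes it was lower on every double KO array than on every Nemo KO array, by 0.17 ± 0.08 (log2 difference -0.17, adjusted p = 0.352). Wnt2, the partner ligand, read between 4.64 and 4.95 on all arrays and was not tested.

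Of the transcription factors, Erg, an ETS factor of all endothelium, read 5.69 and 5.66 in wildtype, 5.65, 5.75 and 5.75 in Nemo KO, 5.64, 5.71 and 5.70 in Cxcr6 KO, and 6.12, 6.48 and 6.17 in double KO. The other 8 arrays lay between 5.64 and 5.75, and Erg rose in double KO against Cxcr6 KO by 0.57 ± 0.10 (adjusted p = 0.0174). The call was lost without Cxcr6 KO replicate 2 or 3 or double KO replicate 3. Gata4, a factor that specifies sinusoidal endothelium, read 7.03 and 5.96 in wildtype, 6.06, 5.76 and 5.89 in Nemo KO, 5.81, 6.02 and 6.02 in Cxcr6 KO, and 6.02, 6.05 and 6.63 in double KO. Wildtype replicate 1 stood alone, and Gata4 differed by -0.59 ± 0.29 in Nemo KO against wildtype (adjusted p = 0.245). Without wildtype replicate 2, which leaves that single array as control and assumes that it varies like the other groups, the difference was -1.13 (adjusted p = 0.0254). In that setting 11.0% of all tested genes were called lower, against 1 of the 30 endothelial genes. Sox18 read between 4.33 and 4.88 on all arrays and was not tested.

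Aqp1 read 8.11 and 7.12 in wildtype, 8.32, 8.65 and 8.79 in Nemo KO, 6.95, 8.18 and 7.76 in Cxcr6 KO, and 9.05, 11.13 and 10.76 in double KO. Its double KO replicate 1 was nearer to the Nemo KO arrays than to the other double KO arrays. Aqp1 rose by 2.69 ± 0.54 against Cxcr6 KO (adjusted p = 0.0239), or 6.43-fold, and missed the threshold without double KO replicate 2 or 3 or any Cxcr6 KO array. Of the bile duct markers 2 of 4 tested rose in the same comparison, against 3.44% of all tested genes. The list was not uniform. Means in Cxcr6 KO and double KO were 4.89 and 6.54 for Tspan8, 4.97 and 5.93 for Epcam, and 6.87 and 7.94 for Sox9. They were 5.61 and 5.63 for Krt7, 5.11 and 5.11 for Krt19, and 4.64 and 4.69 for Cftr. The mean of the 6 markers with a row lay between 5.30 and 5.40 in Cxcr6 KO and between 5.70 and 6.38 in double KO. Their part in the Aqp1 difference was not tested. Ramp2, the partner of the adrenomedullin receptor, read 5.20 and 5.01 in wildtype, 5.21, 5.13 and 5.21 in Nemo KO, 5.18, 5.21 and 5.21 in Cxcr6 KO, and 5.29, 5.26 and 5.31 in double KO. It differed by 0.09 ± 0.07 (adjusted p = 0.428). Vwf, the clotting factor of larger vessels, read between 5.09 and 5.30 on all arrays.

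Set against the median of the 8 junction and surface genes on the same array, the differences of the 33 genes in double KO against Cxcr6 KO ran from -0.57 (log2) to 2.22, the highest being Clec4g. That reference is set by rows of low signal such as Mmrn2 and Robo4, whose differences are compressed, and signals of different rows are not measures of relative abundance.

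**Figure D2:**
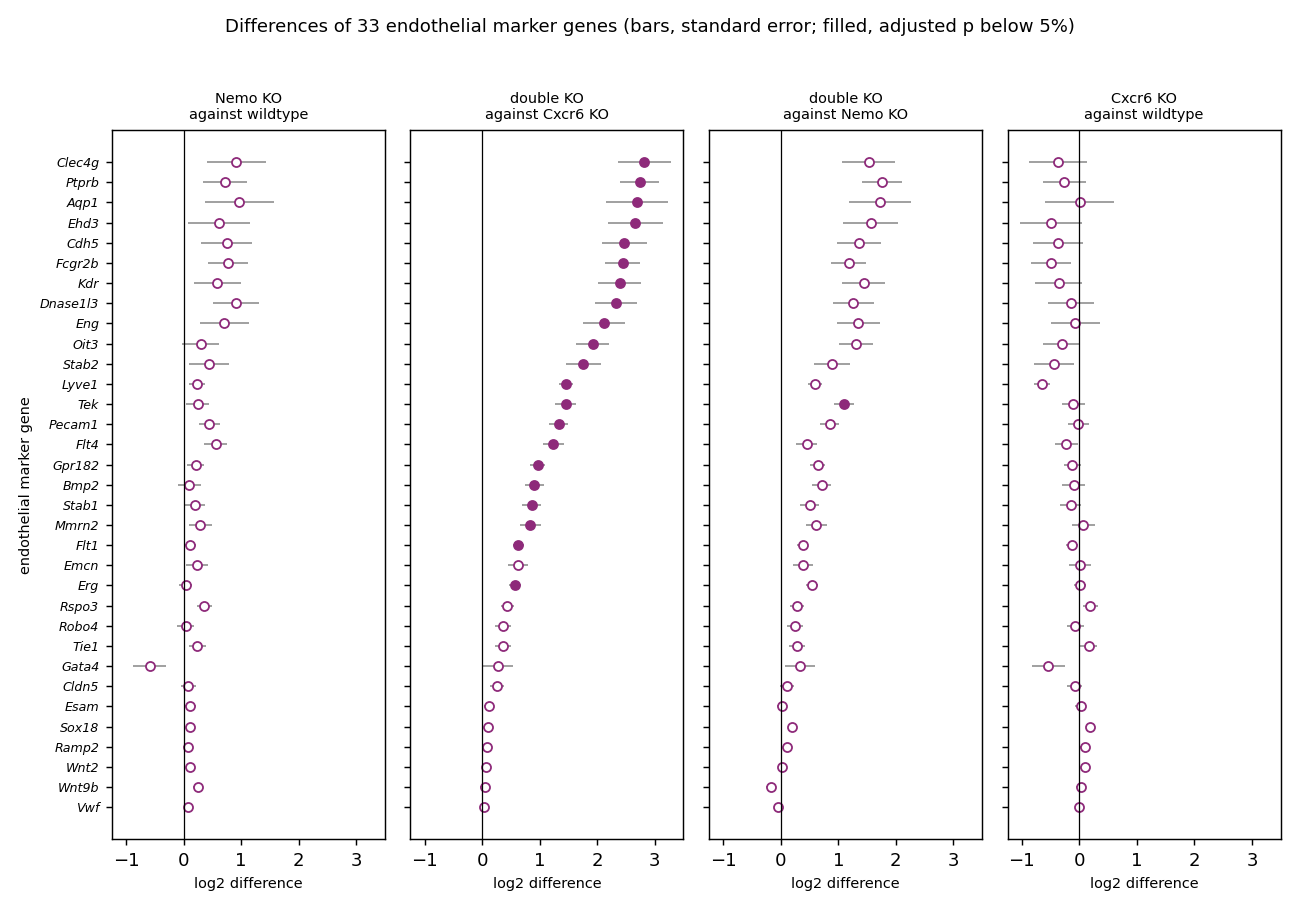
Log2 difference (horizontal axis) of 33 endothelial genes in 4 comparisons; bars are standard errors, drawn for the 30 tested genes, and filled points have an adjusted p below 5%. In double KO against Cxcr6 KO 21 points are filled, in double KO against Nemo KO only Tek is, and in the comparisons with wildtype none is.

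The measured differences on loss of Nemo with Cxcr6 present were smaller and in the same sense. With all 11 arrays, no difference between these and the differences without Cxcr6 was called for the 30 tested genes. In Nemo KO against wildtype, 32 of the 33 genes differed by more than 0, Gata4 being the exception. The median difference was 0.25 (log2), against -0.04 over all tested genes. It was 0.31 without wildtype replicate 1 and also 0.31 without wildtype replicate 2. Every Nemo KO array lay above every wildtype array for 21 of the 30 tested genes, and below for 0, against 11.3% and 24.6% of all tested genes. Without wildtype replicate 1 these counts were 25 and 0 (23.7% and 37.5% of all tested genes), and without wildtype replicate 2 they were 23 and 1 (27.5% and 41.2%). No endothelial gene passed the threshold: 0 of 30 rose and 0 fell by limma, also with a trended, robust variance, against 0.0491% and 0.109% of all tested genes. The shares of all tested genes were 0.289% and 0.714% without wildtype replicate 1, 1.96% and 11.0% without wildtype replicate 2, and 0.785% and 4.79% without Nemo KO replicate 3. Of the endothelial genes 0 were called higher in these settings, and Gata4 was called lower without wildtype replicate 2. At an unadjusted p below 0.05, 5 of the 30 were higher, against 24.6% of all tested genes in either direction. The lowest adjusted p was that of Flt4 (0.56 ± 0.20, adjusted p = 0.128). The largest differences were those of Aqp1 at 0.97 ± 0.60, Clec4g at 0.92 ± 0.51 and Dnase1l3 at 0.92 ± 0.40.

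With Nemo deleted in both groups, double KO was above Nemo KO for 31 of the 33 genes, by a median of 0.59 against 0.04 over all tested genes. For 18 of the 30 tested genes every double KO array lay above every Nemo KO array, and for 1, Wnt9b, every array lay below, against 12.9% and 9.86% of all tested genes. Ramp2, which is among the 18, reached the level for testing only through double KO. Tek alone passed the threshold, 1 of 30 higher and 0 lower, against 0.365% and 0.229% of all tested genes. It rose by 1.10 ± 0.18 (adjusted p = 0.0447), or 2.14-fold. The Tek call was lost without double KO replicate 2 or 3, any Cxcr6 KO array or any Nemo KO array, with adjusted p between 0.0524 and 0.133. At an unadjusted p below 0.05, 22 of the 30 were higher, against 16.8% of all tested genes in either direction. Rspo3, which is among the 22, reached the level for testing only through double KO. Erg differed by 0.54 ± 0.10 (adjusted p = 0.0568), Pecam1 by 0.85 ± 0.16 (adjusted p = 0.057) and Ptprb by 1.76 ± 0.34 (adjusted p = 0.0653). With weights per array, limma called 19 of the 30 higher, where 3.22% of all tested genes were higher and 2.07% lower. After median centring it called 6, where 0.949% were higher and 0.142% lower. This comparison uses the same double KO arrays as the comparison with Cxcr6 KO, so they are not separate evidence.

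Loss of Cxcr6 alone gave no called difference. In Cxcr6 KO against wildtype 0 of the 30 tested genes rose and 0 fell, against 0.175% and 0.0818% of all tested genes. The counts were also 0 with a trended, robust variance. An unadjusted p below 0.05 was found for 1 of the 30, against 11.1% of all tested genes. The median difference was -0.10, against 0.01 over all tested genes, and 12 of the 33 genes were above 0. The median was -0.05 without wildtype replicate 1, -0.13 without wildtype replicate 2 and 0.02 without Cxcr6 KO replicate 1. Every Cxcr6 KO array lay below every wildtype array for 3 of the 30 tested genes and above for 1, against 11.1% and 12.7% of all tested genes. Without wildtype replicate 1 it lay below for 7 and above for 5 (27.6% and 35.9% of all tested genes), and without wildtype replicate 2 below for 12 and above for 1 (30.8% and 26.0%). No endothelial gene was called in either setting, in which 1.3% and 1.28% of all tested genes were called lower and 1.35% and 0.665% higher. The 3 lower genes were Lyve1, Flt4 and Fcgr2b. Lyve1 differed by -0.65 ± 0.14 (adjusted p = 0.127), Fcgr2b by -0.49 ± 0.35 and Flt4 by -0.23 ± 0.20. The 1 higher gene was Rspo3, at 0.19 ± 0.13 (adjusted p = 0.661).

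Whether loss of Nemo had a different effect without Cxcr6 was tested as the interaction, which subtracts the difference between Nemo KO and wildtype from that between double KO and Cxcr6 KO. It passed for 0 of the 30 endothelial genes in either direction, also with a trended, robust variance, and for 0.0% of all tested genes. That last share was 0.703% higher and 0.551% lower without wildtype replicate 1, and 0.404% and 0.0763% without wildtype replicate 2. At an unadjusted p below 0.05, 19 of the 30 were higher, against 11.8% of all tested genes in either direction. Without wildtype replicate 1 the count was 13 (8.99% of all tested genes higher), and without wildtype replicate 2 it was 16 (10.1%). The median over the 33 genes was 0.76 on the log2 scale, against 0.04 over all tested genes, and was 0.63 without wildtype replicate 1 and 0.83 without wildtype replicate 2. The lowest adjusted p was 0.252, shared by Lyve1 and Tek, with the smaller unadjusted limma p for Lyve1 (9.4e-05, against 0.0014). The effect of Nemo loss was larger without Cxcr6 by 1.23 ± 0.19 for Lyve1 and by 1.20 ± 0.27 for Tek. Ptprb differed by 2.02 ± 0.51 (adjusted p = 0.265). Without wildtype replicate 1, Lyve1 passed at 1.35 (adjusted p = 0.0242), the 1 call among the 30 in that setting, and without wildtype replicate 2 there were 0. With all 11 arrays, no difference between the effect of Nemo loss with and without Cxcr6 was thus called for these genes.

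Other genes of the endothelial pathway, from lists of 101 genes with a row (83 tested), rose in the same comparison. In double KO against Cxcr6 KO 24 of the 83 rose and 0 fell, against 3.44% and 3.96% of all tested genes. The median over the 101 was 0.19, against -0.06 over all tested genes. In double KO against Nemo KO 1 of the 83 rose (0.365% of all tested genes), and in Nemo KO against wildtype 0 did (0.0491%). Of other endothelial receptors and adhesion genes, 8 of 17 rose against Cxcr6 KO. Among them F8, the clotting factor that liver endothelium makes, rose by 2.06 ± 0.27 (adjusted p = 0.0089) and Adgrf5, an adhesion receptor, by 2.37 ± 0.32 (adjusted p = 0.00964). Cd93, the receptor of Mmrn2, rose by 1.08 ± 0.15 (adjusted p = 0.00962), and Calcrl, the adrenomedullin receptor that pairs with Ramp2, by 1.37 ± 0.21 (adjusted p = 0.0129).

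The other lists differed in how many genes passed in double KO against Cxcr6 KO, where 3.44% of all tested genes rose and 3.96% fell. Of other angiocrine ligands and their receptors 3 of 18 rose: Bmp6, which with Bmp2 drives hepcidin, by 0.89 ± 0.12 (adjusted p = 0.0089), Hgf, a growth factor for hepatocytes also made by stellate cells, by 2.38 ± 0.34 (adjusted p = 0.0118), and the Wnt co-receptor Lrp5 by 1.36 ± 0.27 (adjusted p = 0.0238). Bmp6 was also the gene that rose in double KO against Nemo KO, by 0.84 ± 0.12 (adjusted p = 0.026). It read 6.53 and 6.45 in wildtype, 6.41, 6.69 and 6.56 in Nemo KO, 6.31, 6.69 and 6.52 in Cxcr6 KO, and 7.32, 7.51 and 7.36 in double KO. The other 3 groups overlapped, and every double KO array was above them. Of the transcription factors 4 of 16 rose: Ets1 by 1.14 ± 0.19 (adjusted p = 0.016), Maf by 0.96 ± 0.19 (adjusted p = 0.023), Meis2 by 0.54 ± 0.08 (adjusted p = 0.0113) and Mef2c by 0.38 ± 0.08 (adjusted p = 0.0323). Of genes of vascular tone 3 of 6 rose, led by the endothelin receptor Ednrb, also a stellate cell gene, at 2.40 ± 0.47 (adjusted p = 0.0234). None of the 8 tested vascular growth factors and angiopoietins passed (median -0.05), and none of the 8 Notch pathway genes did (median 0.23).

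Sinusoids normally lack the basement membrane as a continuous layer. Of its genes 6 of 10 rose in double KO against Cxcr6 KO, with a median of 0.49, against 3.44% of all tested genes that rose. Nid1, which links laminin to collagen, read 5.83 and 8.24 in wildtype, 8.36, 9.36 and 8.0 in Nemo KO, 5.82, 5.80 and 5.92 in Cxcr6 KO, and 8.62, 9.22 and 10.84 in double KO. Every Cre-positive array read 8.0 or more, and so did wildtype replicate 2. Nid1 rose by 3.71 ± 0.69 (adjusted p = 0.0215), or 13.1-fold, Sparc by 1.93 ± 0.32 (adjusted p = 0.0154), Sparcl1 by 0.77 ± 0.17 and the laminin chain Lama4 by 0.57 ± 0.11. Nid1 and Sparc are made by stellate cells as well as by endothelium.

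**Figure D3:**
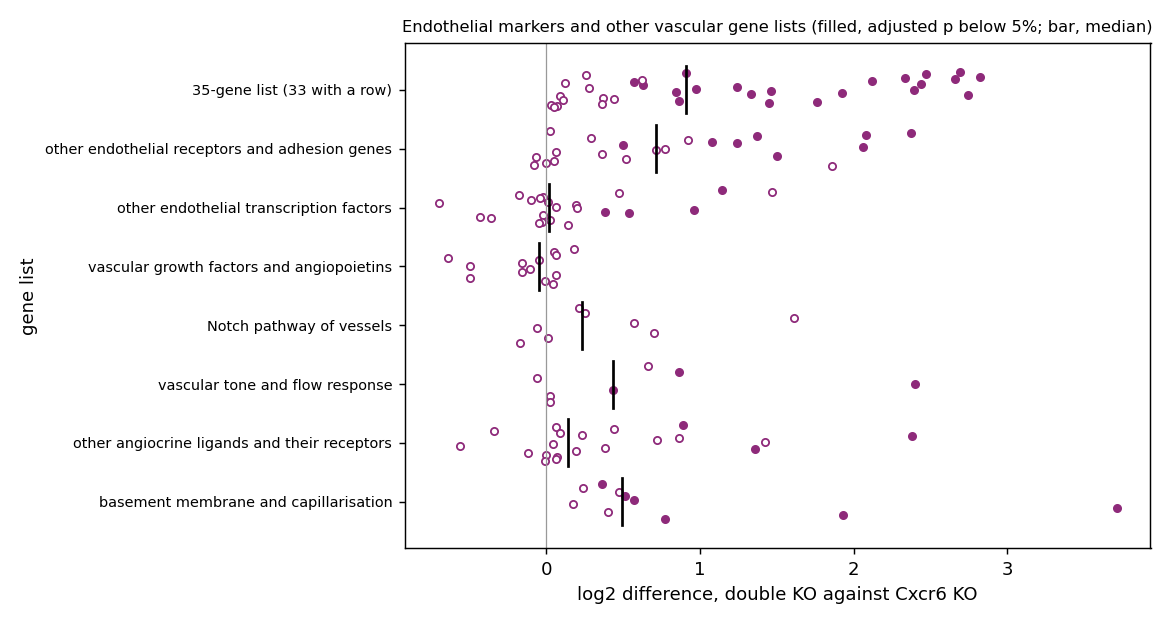
Log2 difference in double KO against Cxcr6 KO (horizontal axis) of the listed endothelial genes and of 7 other vascular lists (rows); each point is a gene, filled where the adjusted p is below 5%, and black bars are medians. The listed genes have the median 0.91, the other receptors and adhesion genes follow, and the growth factor list lies around -0.05 with no filled point.

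Marker lists of macrophages and stellate cells were also highest in double KO. The mean of 14 macrophage markers lay between 6.50 and 7.51 in wildtype, 7.13 and 8.63 in Nemo KO, 6.86 and 7.17 in Cxcr6 KO, and 7.91 and 8.86 in double KO. Of these, 0 of 14 rose in Nemo KO against wildtype (median 0.68), against 0.0491% of all tested genes. In double KO against Cxcr6 KO 5 of 14 rose (median 1.54), against 3.44% of all tested genes. The list was not uniform: the difference was 2.69 ± 0.45 for Lyz2 (adjusted p = 0.016), 0.24 ± 0.43 for Timd4 (adjusted p = 0.745) and -0.53 ± 0.25 for Cd163 (adjusted p = 0.195). The mean of 12 stellate cell and fibroblast markers lay between 5.73 and 6.02 in wildtype, 6.17 and 6.25 in Nemo KO, 5.59 and 5.72 in Cxcr6 KO, and 6.28 and 6.97 in double KO, and 7 of the 9 tested rose against Cxcr6 KO. Des, a defining stellate cell marker, was near the lower end of the scale on every array (4.61 to 4.86), and Lrat read between 5.54 and 5.87 in Cxcr6 KO and between 6.64 and 7.12 in double KO. The part of these cells in the endothelial differences was not tested.

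The arrays did not rank alike in these lists everywhere. Within Cxcr6 KO and within double KO the macrophage and endothelial means put the replicates in the same order. The macrophage means of replicates 1, 2 and 3 were 6.86, 7.17 and 6.92 in Cxcr6 KO, and 7.91, 8.86 and 8.52 in double KO. In Nemo KO replicate 3 was the highest in both lists (8.63 and 6.92), and replicates 1 and 2 were in opposite order. From wildtype replicate 1 to replicate 2 the macrophage mean was 6.50 and 7.51, whereas the endothelial mean was 6.45 and 6.33. The 9 cell cycle genes had means of 5.35 and 7.35 on wildtype replicates 1 and 2. Their means lay between 6.22 and 6.46 in Nemo KO, 5.45 and 5.62 in Cxcr6 KO, and 6.24 and 7.96 in double KO. All 9 had a difference above 0 in double KO against Cxcr6 KO (median 1.14) and against Nemo KO (median 0.59). The medians were -0.07 in Nemo KO and -0.5 in Cxcr6 KO, each against wildtype. In any comparison 0 of 9 rose, and 3.44% of all tested genes rose in double KO against Cxcr6 KO. The highest double KO array was replicate 3 for cell cycle genes and replicate 2 for endothelial genes. T, NK and NKT cell markers, the cells in which Cxcr6 is best known, had list means between 4.85 and 5.12 on every array, with 7 of the 11 below the level needed for testing. B cell, neutrophil and platelet lists lay between 4.76 and 5.59. Alas2, an erythroid gene, fell by 1.60 ± 0.27 in double KO against Cxcr6 KO (adjusted p = 0.0163) and by 1.54 ± 0.27 against Nemo KO (adjusted p = 0.0487). Stress genes of cell isolation had means between 10.38 and 11.08, with 0 of 8 called in any comparison.

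**Figure D4:**
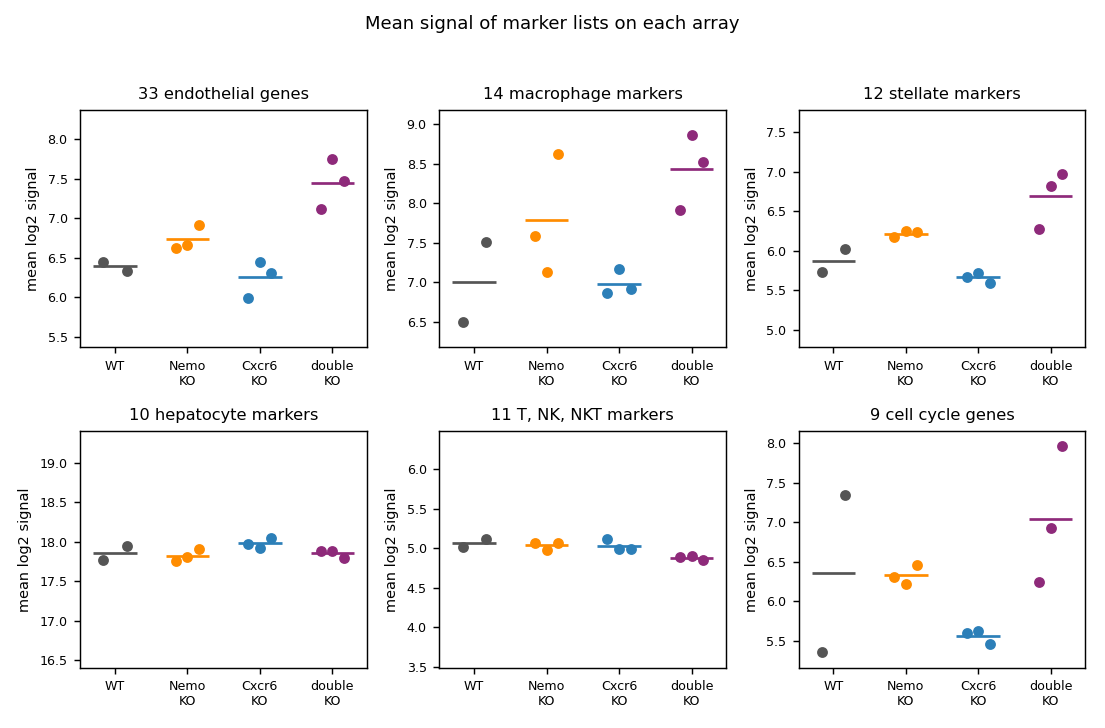
Mean log2 signal (vertical axis) of 6 gene lists on each array, with lines at group means; each panel spans at least 3 log2 units. Endothelial, macrophage and stellate cell lists are highest in double KO, hepatocyte markers stay between 17.76 and 18.05, and the wildtype arrays are far apart in macrophage and cell cycle genes.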

How the data were processed

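RNA of 11 hepatocyte samples was hybridised to whole-transcript arrays. The deposited values are log2 signals that the authors made with Affymetrix Expression Console, RMA and Transcriptome Analysis Console, per the submitters' processing notes; versions and the genome build are not given in the sources used here. Of 65956 rows, 30604 have 1 gene symbol in the platform annotation, 2146 several and 33206 none. Symbols were updated through RefSeq (GRCm38.p6; 22818 rows matched, 827 symbols changed). For each gene the row with the highest mean was used. Genes whose highest group mean reached 5.271, the median of row means, were tested (18337).

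A mean per group was fitted to all 11 arrays by limma (version 3.58.1, R 4.3.3; eBayes without trend), which left 7 residual degrees of freedom beside a prior of 2.13. Tests were two-sided, with Benjamini-Hochberg adjustment over all tested genes and calls at 5%. "Rose" and "fell" are used for called genes, and values after ± are standard errors. The fit was tested on simulated data. The number of arrays limits the precision, and arrays have no read depth.

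The listed genes, the other lists and the tests were chosen with earlier results of these data known. Array values are given for up to 3 genes per role, those with the lowest average rank of p over Nemo KO against wildtype, double KO against Cxcr6 KO and double KO against Nemo KO, and for any gene called in the interaction, in Cxcr6 KO against wildtype, or against the sign of its role. Up to 4 called genes are named per other list and comparison. Hamp, Mki67, Lyz2, Timd4, Cd163, Alas2, Des, Lrat and the arrays of Bmp6 and Nid1 were chosen after their values were seen. Replicate numbers did not pair the samples: over 15 same-numbered pairs, correlations of deviations from group means ran from -0.272 to 0.275. Alternatives were a replicate block, leaving out each array, median centring, quantile normalization, 2 other filters, the mean of all rows of a gene, fits of the compared groups only, a trended robust variance and array weights.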

Additional observations from a re-analysis of the deposited data

Results flagged for a closer look

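Lyve1 and Fcgr2b had differences of opposite sign on loss of Cxcr6 with Nemo present and with Nemo deleted. Every Cxcr6 KO array was below every wildtype array, and every double KO array was above every Nemo KO array. Taken alone, the first held for 11.1% of all tested genes and the second for 12.9%. For Fcgr2b the nearest Cxcr6 KO and wildtype arrays read 7.29 and 7.32. By group means the opposite sign was not particular to these genes. The order Cxcr6 KO, wildtype, Nemo KO, double KO held for 20 of the 33. For Lyve1 the difference was -0.65 ± 0.14 (log2, SE) with Nemo present and 0.59 ± 0.12 with Nemo deleted, and the interaction was 1.234 (limma, Benjamini-Hochberg adjusted p = 0.252). For Fcgr2b the differences were -0.49 ± 0.35 and 1.18 ± 0.31, and the interaction was 1.672 (adjusted p = 0.268). Neither interaction passed the threshold of 5% with all arrays. Without wildtype replicate 1 that of Lyve1 did, at 1.35 (adjusted p = 0.0242).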

How the results depend on the processing

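Each of the 22 calls (21 in double KO against Cxcr6 KO and Tek in double KO against Nemo KO) kept its direction under every alternative. All 22 also kept their call under median centring, quantile normalization, the filter at the 60th percentile, the mean of all rows of a gene, array weights and the trended, robust variance. The replicate block, no filter, and fits of the compared groups only kept 21 and lost Tek (adjusted p = 0.0812, 0.0541 and 0.0979). Leaving out 1 array gave 7 to 24 genes higher in double KO against Cxcr6 KO. The 7 came without Cxcr6 KO replicate 3, where 0.453% of all tested genes rose. The 24 came without double KO replicate 1, where 3.64% rose. In double KO against Nemo KO leaving out 1 array gave 0 to 2 genes higher. The 2 came without double KO replicate 1, where 0.485% of all tested genes rose. With all arrays, the count of 1 in double KO against Nemo KO became 0 with the replicate block, without a filter or with the compared groups only. In these settings 0.229%, 0.186% and 0.0545% of all tested genes were higher. It became 2 with quantile normalization (0.36% of all tested genes higher) and 3 with the trended, robust variance (0.409%). It became 6 with centring (0.949%) and 19 with array weights (3.22%). The cause was not tested. Centring moved the median of all tested genes from 0.039 to 0.156 in that comparison and from 0.035 to 0.171 in the interaction. It also changed the split of all calls, from 67 higher and 42 lower to 174 and 26 in double KO against Nemo KO, from 631 and 727 to 656 and 463 in double KO against Cxcr6 KO, and from 9 and 20 to 86 and 1188 in Nemo KO against wildtype. Quantile normalization gave splits of 647 and 1094 in double KO against Cxcr6 KO, 66 and 22 in double KO against Nemo KO, 6 and 5 in Nemo KO against wildtype, and 36 and 9 (from 32 and 15) in Cxcr6 KO against wildtype. Signals near the lower end of the scale limit what could be seen for Wnt2, Sox18, Vwf and Ramp2.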

Other observations

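The deposited values hold ties between arrays. For 16 of the 33 endothelial genes at least 2 arrays carry the same value, and Vwf shares a value on 7 arrays, Wnt2 on 6 and Esam on 5. Over all tested genes 49.4% have such a tie. Any pair of arrays was identical in 3.39% to 7.4% of rows.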
